A study of Mus musculus with 13 samples.

Results

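*Ubb* and *Rps27a* are ubiquitin-encoding genes, whose counts were followed here across the female germ cell libraries of 2 crosses. The members were the rows of the count table whose identifier carries the GENCODE M21 name *Ubb* or *Rps27a*, which gave 2 genes of the 55335 in the table. Both rows held counts and passed the filter on low counts. The set was chosen by the difference in *Ubb* counts between the crosses in these same libraries, so the values of both genes between crosses are given as a description with no test.

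Each library was a 3' Tag-Seq library, in which sequencing starts near the 3' end of polyadenylated transcripts, made from the *Pou5f1*-GFP+ cells sorted from the ovaries of 1 embryo at E17.5. *Pou5f1* (also called *Oct4*) drives GFP in germ cells, which at this stage are oocytes in meiotic prophase. The constitutive cross joined *Nr3c1* KO/+ parents, the father also carrying *Pou5f1*-GFP, and gave WT (n = 3) and KO/KO (KO, n = 3) embryos, where KO is a deletion allele of the glucocorticoid receptor (GR). The conditional cross joined *Nr3c1* flox/flox mothers with flox/flox fathers carrying *Pou5f1*-GFP and, on 1 allele, *Pou5f1*-CreERT2. It gave Cre-negative embryos (flox, n = 3) and Cre-positive embryos (cKO, n = 4). In the floxed allele exon 3 of *Nr3c1* is flanked by loxP sites, and all dams of the conditional cross received 125 μg/g tamoxifen at E10.5, so the flox controls shared the floxed allele and the tamoxifen with cKO. No treatment is given for the constitutive cross. Cross, floxed allele and tamoxifen therefore coincide in the 13 libraries and cannot be told apart, and in cKO the deletion depends on where *Pou5f1*-CreERT2 was active.

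Gene counts summed to between 2048706 and 3674989 in a library. Of 10 fetal oocyte markers 9 had counts, with *Sycp3* at 0 in all libraries, and together they ran from 14105 to 18256 CPM (counts scaled to the library total after TMM normalization) in the constitutive and from 11486 to 15819 CPM in the conditional cross. Of 15 markers of ovarian somatic cells 14 had counts, which together came to 55.4 to 183 CPM in the constitutive and 89.2 to 184 CPM in the conditional cross. Of 7 erythroid markers 4 had counts, with sums of 0 to 238 CPM and 76.9 to 1323 CPM in the constitutive and conditional crosses, the highest in flox replicate 1, while 6 white blood cell markers summed to 0 to 32.1 CPM and 0 to 32.7 CPM. These ranges overlap between crosses for all 4 marker lists, but the medians were not alike. In the constitutive and conditional crosses they were 1.67 and 26.9 CPM for white blood cell markers and 104 and 191 CPM for erythroid markers. For somatic markers they were 104 and 140 CPM, and for oocyte markers 14680 and 14014 CPM. The part of these markers in the results was not tested. Counts of the targeted gene *Nr3c1* were 44.6 ± 14.8 CPM in WT (SD, n = 3), 44.6 ± 25.3 in KO (n = 3), 65.8 ± 33.3 in flox (n = 3) and 52.6 ± 18.0 in cKO (n = 4). Where the 3' tags fall within *Nr3c1* was not examined, so these counts are not used to check the genotypes. In single-cell 3' libraries from an earlier stage, the paper reports loss of *Nr3c1* transcript in KO across ovarian cell types. It also reports loss of GR protein in KO ovaries by immunofluorescence at E17.5, and checks of the deletion by immunoblot and qRT-PCR at earlier stages. The WT and KO means here show no loss of *Nr3c1* counts, and the reason was not tested.

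Ubiquitin is a small protein that is attached to other proteins through an E1 activating enzyme, E2 conjugating enzymes and E3 ligases, and a chain of ubiquitins can direct its target to the proteasome. It is made as a precursor. *Ubb* is a polyubiquitin gene, in which copies of the ubiquitin coding sequence follow each other head to tail, and it is known to respond to heat shock and other stress. *Rps27a* encodes a single ubiquitin fused to a protein of the small ribosomal subunit, and deubiquitinases release free ubiquitin from both kinds of precursor. *Ubb* has a known role in the germline, since mice without it are infertile and their germ cells arrest in meiotic prophase.

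The first ubiquitin unit of each gene is shown because near-identical coding copies decide how far reads can be assigned to one gene. The sequences were read from the GENCODE M21 transcripts, 5' to 3' on the coding strand, each of 228 bases or 76 codons. The unit of *Ubb* is in lower case, and capitals in that of *Rps27a* mark bases that differ from *Ubb*.
Ubb: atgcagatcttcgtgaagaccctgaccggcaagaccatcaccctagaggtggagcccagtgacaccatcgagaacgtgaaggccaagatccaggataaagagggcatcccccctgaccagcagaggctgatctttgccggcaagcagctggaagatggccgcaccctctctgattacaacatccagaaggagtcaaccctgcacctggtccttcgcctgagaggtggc
Rps27a: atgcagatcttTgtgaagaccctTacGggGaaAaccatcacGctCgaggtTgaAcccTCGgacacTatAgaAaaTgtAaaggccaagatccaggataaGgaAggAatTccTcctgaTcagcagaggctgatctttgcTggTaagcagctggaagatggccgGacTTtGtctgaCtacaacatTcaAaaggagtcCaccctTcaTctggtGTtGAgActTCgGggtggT
The *Rps27a* unit differed from that of *Ubb* at 44 bases (80.7% identity). Counted in the transcripts, *Ubb* holds 4 ubiquitin units and *Rps27a* holds 1, followed by 80 codons before the stop codon. The units within *Ubb* were closer, with 95.6 to 99.1% identity between them. Reads inside the repeats could thus match several copies, and how reads with several matches were counted is not given in the sources used here.

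On mm10, *Ubb* (ENSMUSG00000019505.7) lies on the plus strand of chromosome 11 from 62551171 to 62553213 and overlaps no other gene. *Rps27a* (ENSMUSG00000020460.15) lies on the minus strand of the same chromosome from 29545846 to 29548109, with 7.07% of its interval shared with *Clhc1*. The last 500 bases of both genes, near which 3' tags start, are shared with no other gene. The annotated pseudogenes *Rps27a-ps1* and *Rps27a-ps2* held 0 counts in all libraries.

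*Ubb* had few counts in the constitutive cross and was among the most counted genes in the conditional cross. In WT it had 18, 7 and 46 counts in replicates 1 to 3, or 7.96, 3.34 and 12.5 CPM. In KO it had 13, 31 and 28 counts, or 4.94, 15.1 and 12.3 CPM. The 6 constitutive libraries thus all held *Ubb* reads, at no more than 46 in any library.
In flox *Ubb* had 897, 1773 and 1075 counts, or 379, 788 and 521 CPM. In cKO it had 1466, 1201, 1336 and 1197 counts, or 508, 469, 491 and 413 CPM. Every conditional library stood above every constitutive library, and the lowest of them, flox replicate 1, was 25.2 times the highest of the others, KO replicate 2. The mean was 510 ± 133 CPM in the conditional cross (SD, n = 7) and 9.36 ± 4.67 CPM in the constitutive cross (n = 6), a ratio of 54.5 and a difference of 5.79 on the log2 CPM scale. The flox mean was 70.9 times the WT mean, and the cKO mean was 43.6 times the KO mean. Among the 13086 genes tested, *Ubb* ranked 9084th by mean CPM in the constitutive and 212th in the conditional cross. 3' tags are read from near the transcript end, so these levels are not divided by gene length. They are reads and not numbers of transcripts, since no molecular identifiers are described. In sorted cells counted in bulk, fewer cells with a transcript and less of it per cell cannot be told apart.

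**Figure D1:**
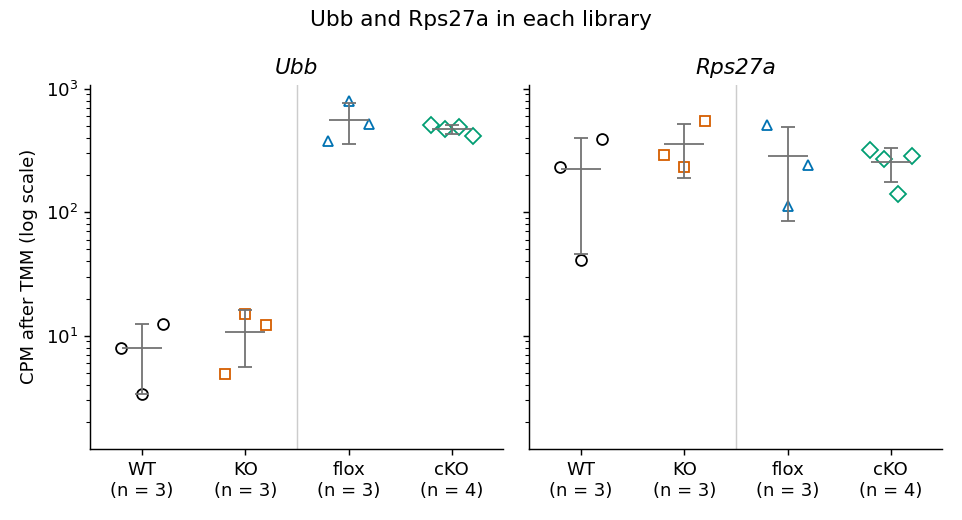
CPM after TMM normalization on a log scale for *Ubb* and *Rps27a* in the 4 groups, with 1 symbol per library and the mean ± SD in grey. *Ubb* stays at or below 15.1 CPM in all WT and KO libraries and at or above 379 CPM in all flox and cKO libraries, while the *Rps27a* libraries of both crosses overlap.

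*Rps27a*, which encodes ubiquitin joined to a protein of the small ribosomal subunit, varied widely between libraries of the same group. It had 523, 86 and 1448 counts in WT, or 231, 41.1 and 394 CPM. In KO it had 757, 481 and 1237 counts, or 288, 234 and 544 CPM. WT replicate 2 was the lowest of all 13 libraries and KO replicate 3 the highest.
In flox it had 1203, 253 and 495 counts, or 508, 112 and 240 CPM. In cKO it had 922, 688, 381 and 827 counts, or 319, 269, 140 and 285 CPM. All conditional libraries fell inside the range of the constitutive ones. The mean was 268 ± 130 CPM in the conditional (n = 7) and 289 ± 170 CPM in the constitutive cross (n = 6), a ratio of 0.928. On the log2 CPM scale the difference was 0.08, of the opposite sign to the ratio of means, and with 1 library left out at a time it ranged from -0.39, without WT replicate 2, to 0.42, without WT replicate 3.

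The counts bear on whether *Rps27a* offset the difference in *Ubb*. *Rps27a* was on average 20.9 CPM lower and *Ubb* 500 CPM higher in the conditional than in the constitutive cross. Summed over both genes, WT libraries held 239, 44.4 and 406 CPM and KO libraries 293, 249 and 556 CPM. The flox libraries held 888, 900.1 and 761 CPM, and the cKO libraries 827, 738, 630.5 and 698 CPM. All 7 conditional sums were above all 6 constitutive sums, with the nearest pair, cKO replicate 3 and KO replicate 3, 1.13-fold apart. The mean sum was 777 ± 99.4 CPM in the conditional (n = 7) and 298 ± 172 CPM in the constitutive cross (n = 6), a ratio of 2.61. The sums cover these genes only and not all ubiquitin-coding counts.

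**Figure D2:**
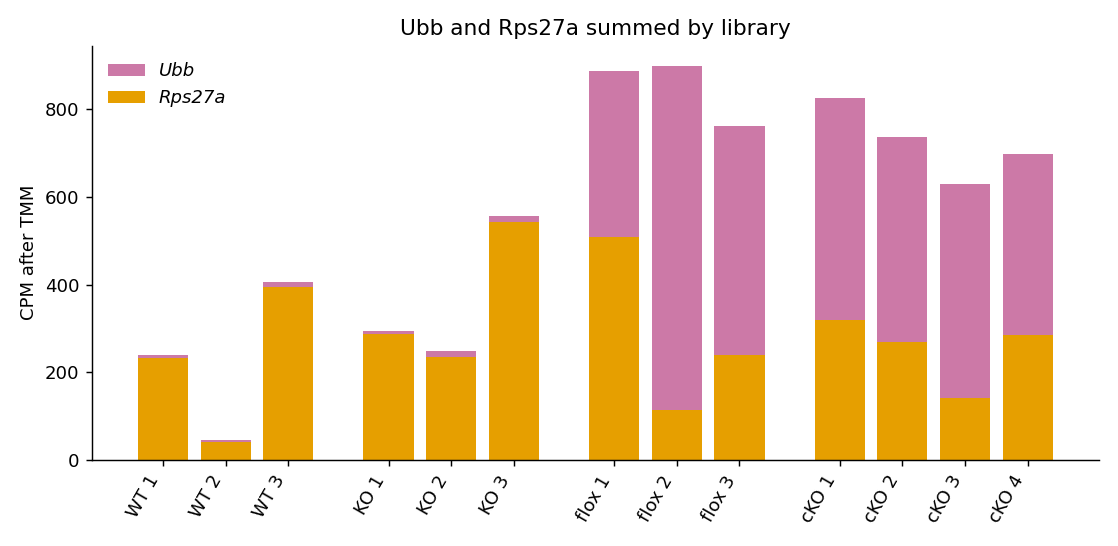
Stacked bars of CPM after TMM normalization for *Rps27a* and *Ubb* in each of the 13 libraries. The sums reach at most 556 CPM in WT and KO libraries and at least 630.5 CPM in flox and cKO libraries, and the *Ubb* part is visible as a large block only in the latter.

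The shares of the 2 genes in their summed counts moved accordingly. *Ubb* gave 3.33, 7.53 and 3.08% in WT and 1.69, 6.05 and 2.21% in KO. It gave 42.7, 87.5 and 68.5% in flox and 61.4, 63.6, 77.8 and 59.1% in cKO. The lowest share, in KO replicate 1, had a 95% Wilson interval of 0.989 to 2.87%, and the highest, in flox replicate 2, one of 86.0 to 88.9%, which cover counting error only. The mean share of *Ubb* was 3.98 ± 2.30% in the constitutive (n = 6) and 65.8 ± 14.3% in the conditional cross (n = 7). For each 100 counts of *Rps27a* there were 1.72 to 8.14 counts of *Ubb* in the constitutive and 74.6 to 701 in the conditional libraries, so flox replicate 1 was the 1 conditional library with fewer *Ubb* than *Rps27a* counts.

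In the conditional cross *Ubb* and *Rps27a* stood at opposite ends in flox replicates 2 and 1. Replicate 2 of flox had the highest *Ubb* (788 CPM) and the lowest *Rps27a* (112 CPM), and replicate 1 of flox the lowest *Ubb* (379 CPM) and the highest *Rps27a* (508 CPM). Over the conditional libraries their sum had a coefficient of variation of 12.8%, against 26.1% for *Ubb* and 48.7% for *Rps27a* (n = 7). In flox these coefficients were 9.03%, 36.9% and 70.4% (n = 3), and in cKO 11.3%, 8.76% and 31.0% (n = 4). The sum was thus steadier than *Ubb* in flox but not in cKO. In the constitutive cross WT replicate 2 was lowest in both genes, and these coefficients were 57.9%, 49.9% and 58.8% (n = 6). All values in a library share its scaling to the library total.

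Over 13 libraries the log2 CPM of *Rps27a* was most like that of *Rps7* (Pearson's r = 0.91), a small ribosomal subunit gene, of *Cox7c* (r = 0.91), which encodes a subunit of cytochrome c oxidase, of *Rpl5* (r = 0.90), a large ribosomal subunit gene, of *Sod2* (r = 0.89), the mitochondrial superoxide dismutase, and of *Rpl7a* (r = 0.89). These 5 were taken as the highest of all genes tested, so no p is given. The median r with *Rps27a* was 0.60 over 30 small ribosomal subunit genes and -0.04 over all 13085 other genes tested. The 30 small subunit genes summed to 17770 CPM in WT replicate 2, the lowest of all libraries, and to 36901 CPM in flox replicate 1, the highest.
*Rps27a* nonetheless varied more than its list. Its SD of log2 CPM within groups was 1.04, against a median of 0.48 over the 30 small subunit genes, and 28 of these were below it. Much of this SD came from WT replicate 2, without which that of *Rps27a* was 0.73. The SDs of the list were not computed without that library. *Ubb* had an SD of 0.60. The median SD was 0.36 over the 1000 genes of highest mean log2 CPM and 0.98 over all genes tested. The SD of *Ubb* joins libraries of 7 to 46 counts with libraries of 897 to 1773 counts, so neither median is at its count level.

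**Figure D3:**
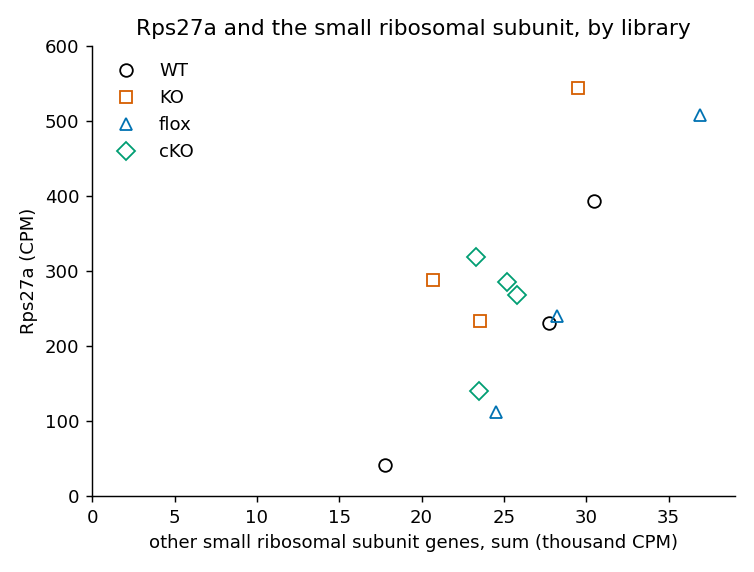
*Rps27a* CPM in each library (vertical axis) against the summed CPM of 30 other small ribosomal subunit genes (horizontal axis, divided by 1000), with symbols by group. WT replicate 2 is lowest on both axes, and the other libraries spread widely in *Rps27a*.

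Within each cross, deletion of GR changed neither *Ubb* nor *Rps27a* at an adjusted p-value ≤0.05. In KO against WT edgeR's quasi-likelihood test called 0 of 13086 genes (0%), and 761 (5.82%) had an unadjusted p under 0.05. The log2 fold change was 0.38 for *Ubb* (SE 0.43, 95% interval -0.52 to 1.27, adjusted p = 1) and 0.67 for *Rps27a* (SE 0.54, interval -0.45 to 1.80, adjusted p = 0.976). With 1 library left out at a time *Ubb* ranged from 0.044, without WT replicate 2, to 0.91, without WT replicate 3, and *Rps27a* from 0.19 to 1.39 without the same libraries. KO and WT libraries overlapped for both genes, as for all but 9.46% of the genes tested. Exact permutation tests, two-sided, gave p = 0.6 for *Ubb* and 0.4 for *Rps27a*, where 3 against 3 libraries allow no p under 0.1. The intervals leave room for changes in *Ubb* and *Rps27a* larger than a doubling.

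In cKO against flox 0 of 13086 genes were called (0%), and 418 (3.19%) had an unadjusted p under 0.05. The log2 fold change was -0.26 for *Ubb* (SE 0.34, interval -0.97 to 0.45) and -0.18 for *Rps27a* (SE 0.51, interval -1.22 to 0.86), with an adjusted p of 0.9998 for each. The groups overlapped for both genes, as for all but 4.97% of the genes tested, and exact permutation tests, two-sided, gave p = 0.571 for *Ubb* and 1 for *Rps27a*, where 4 against 3 libraries allow no p under 0.02857. Without flox replicate 2, its highest library, the value for *Ubb* was 0.063. That for *Rps27a* was 0.52 without flox replicate 1, its highest flox library, and 0.023 without cKO replicate 3, its lowest cKO library. The signs for *Ubb* and *Rps27a* thus rest on single libraries.

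The GR effects in the conditional and constitutive crosses, (cKO - flox) - (KO - WT), did not differ at an adjusted p ≤0.05 for either gene. The difference was -0.64 on the log2 scale for *Ubb* (SE 0.55) and -0.85 for *Rps27a* (SE 0.74), with an adjusted p of 0.9999 for each from edgeR's quasi-likelihood test, which called 0 of 13086 genes (0%). Leaving out 1 library moved the difference for *Ubb* between -1.16, without WT replicate 3, and -0.30, without WT replicate 2. For *Rps27a* it moved between -1.56, without WT replicate 3, and -0.16, without flox replicate 1. The *Ubb* difference between crosses was present in deleted and undeleted libraries alike, as the flox to WT and cKO to KO ratios above show.

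The sum of both genes was 366 ± 166 CPM in KO and 230.0 ± 181 CPM in WT (n = 3 each), with overlapping groups. It was 723 ± 82.0 CPM in cKO (n = 4) and 850 ± 76.7 CPM in flox (n = 3), where cKO replicate 1 lay above flox replicate 3. No test is given for sums over the members.

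Few genes separated the crosses as *Ubb* did. *Ubb* was chosen for its difference between these same libraries, so its place among them is a description with no test. Of the 13086 genes tested, 21 (0.16%) had no overlap between the 7 conditional and the 6 constitutive libraries, 13 of them higher (0.0993%) and 8 lower (0.0611%) in the conditional cross, with *Ubb* among the former. The gap between the lowest conditional and the highest constitutive library was 4.58 on the log2 CPM scale for *Ubb*. The next gaps were 1.15 for *Yif1a*, a gene of the secretory pathway with 0 to 1 counts in the constitutive and 5 to 22 in the conditional cross, and 1.10 for the lincRNA *1700104B16Rik*, with 0 to 2 and 6 to 48 counts. *Mamdc2* (0.80), *Zfp184* (0.59) and *Chd1l* (0.26), a chromatin remodeller at 34.3 to 83.2 CPM in the constitutive and 99.5 to 182 CPM in the conditional cross, followed.
In the other direction the largest gaps included 0.89 for *Rps24-ps3*, 0.52 for *Gm6475*, 0.38 for *Vgll4* and 0.19 for *Gm9701*. Of these, *Rps24-ps3*, *Gm6475* and *Gm9701* are processed pseudogenes, and *Rps24-ps3* is named as a copy of a small ribosomal subunit gene, so its reads may be shared with that gene. The gap of *Ubb*, the gene whose difference guided the choice, was the widest in either direction.

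**Figure D4:**
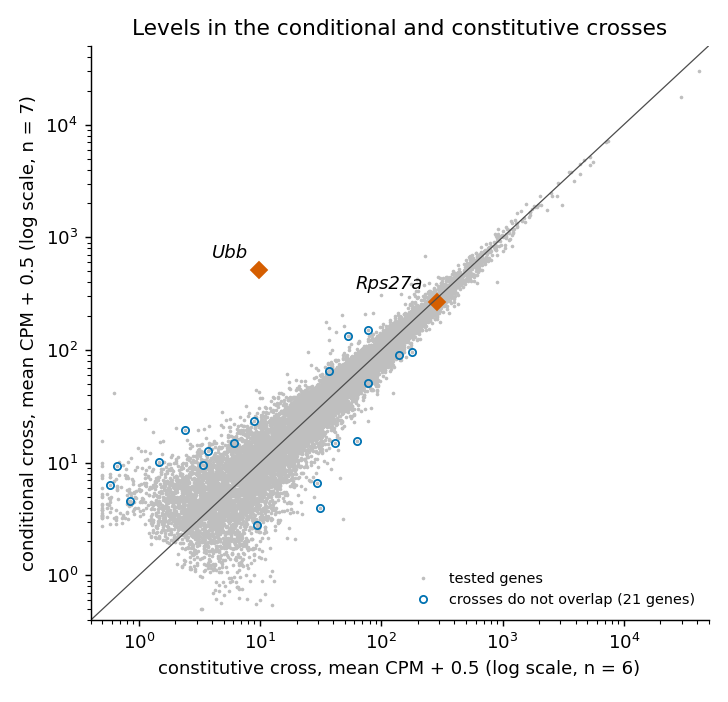
Mean CPM + 0.5 of the 13086 tested genes in the constitutive (horizontal) and conditional cross (vertical) on log scales, with the line of equal levels, the 21 genes whose libraries do not overlap between crosses as blue circles (*Ubb*, one of them, is under its diamond) and *Ubb* and *Rps27a* as orange diamonds. *Ubb* lies far above the line, at 9.36 and 510 CPM, while *Rps27a* lies on the band of all genes.

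The genes around *Ubb* on chromosome 11 were set beside it. Within 1 Mb of *Ubb* 55 other genes are in the table, of which 21 were tested. Between crosses 0 of them were called, where edgeR called 1 of all 13086 genes tested (0.00764%). For 0 of the 21 did the crosses' libraries not overlap, beside 0.16% of all genes tested. With shares this low over all genes, the counts of 0 are no trait of this region. Their log2 fold changes between crosses had a median of 0.05, beside 0.03 over all genes tested, with 13 above and 8 below 0.
The lowest unadjusted p-values belonged to *Epn2* (log2 fold change -0.62, SE 0.24), *Adora2b* (4.16, SE 1.67) and *Specc1* (1.01, SE 0.50), with adjusted p of 0.830, 0.838 and 0.885. *Adora2b*, an adenosine receptor gene, had a group mean of at most 9.39 CPM, so its fold change rests on few counts. Around *Rps27a* 39 other genes are in the table, 13 were tested and 0 were called, and *Rtn4* had the lowest unadjusted p-value (log2 fold change -0.40, SE 0.19, adjusted p = 0.869).

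**Figure D5:**
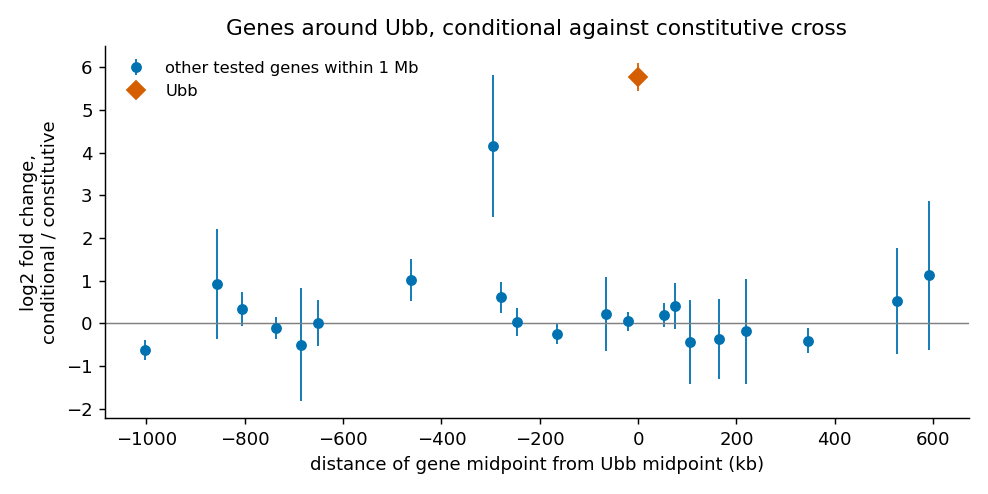
Log2 fold change of the conditional over the constitutive cross (vertical axis, bars ± 1 SE from edgeR) against the distance of each gene's midpoint from that of *Ubb* in kb, for *Ubb* and the 21 other tested genes within 1 Mb. *Ubb*, which was chosen for this difference and is shown as a description, stands at 5.77. Of its neighbours only *Adora2b*, at 4.16 with an SE of 1.67, lies above 2.

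Of the enzymes that load and remove ubiquitin, none passed the test between crosses, which does not show equal levels. Over all genes tested 0.00764% were called between crosses, and 0% within each cross and in the difference of GR effects. A list with 0 called therefore does not differ from the genes at large. Of the E1 genes, *Uba1* had 269 ± 87.0 CPM in WT, 201 ± 39.9 in KO, 263 ± 40.0 in flox and 243 ± 50.7 in cKO, and *Uba6* 574 ± 47.5, 620 ± 63.7, 574 ± 107 and 575 ± 128. Their log2 fold changes between crosses were 0.12 (SE 0.21) and -0.05 (SE 0.18), and neither was called in any comparison. Of 30 E2 genes 28 were tested and 0 called. Between crosses their median log2 fold change was 0.07, with 17 above and 11 below 0, and the lowest unadjusted p-value was that of *Ube2d1*, at -1.25 (SE 0.58, adjusted p = 0.868).
All 20 deubiquitinase genes were tested and 0 were called. Between crosses 6 were above and 14 below 0, with a median of -0.19 beside 0.03 over all genes tested. The lowest unadjusted p-values were those of *Otud5*, at 0.47 (SE 0.20, adjusted p = 0.838), and *Usp9x*, at -0.49 (SE 0.27, adjusted p = 0.911). *Uchl1*, an abundant deubiquitinase that binds free ubiquitin, had 743 ± 618 CPM in WT, 786 ± 119 in KO, 995 ± 151 in flox and 621 ± 148 in cKO.

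The proteasome genes, the heat shock genes and the ubiquitin-like modifiers had no called member in any comparison. Among all genes tested the shares called were 0.00764% between crosses and 0% in the other comparisons, so this is no trait of these lists. Between crosses the 32 proteasome genes had a median log2 fold change of 0.09, and *Psmc1*, an ATPase of the proteasome, the lowest unadjusted p-value (-0.54, SE 0.20, adjusted p = 0.812). In KO against WT *Psmd14*, a deubiquitinase of the proteasome lid, had 160 ± 36.5 against 74.4 ± 41.9 CPM (log2 fold change 1.10, SE 0.40, adjusted p = 0.847), and in cKO against flox *Psmd13* had 218 ± 54.9 against 423 ± 209 CPM (-0.95, SE 0.35, adjusted p = 0.9998).
Since *Ubb* is a known stress-response gene, genes of the heat shock and proteotoxic stress response were set beside it. Of 20 such genes 19 were tested, and between crosses their median was -0.05, with 8 above and 11 below 0. *Hspd1*, the mitochondrial chaperonin, was at 524 ± 68.7 CPM in WT, 644 ± 90.8 in KO, 361 ± 77.4 in flox and 448 ± 40.5 in cKO (log2 fold change between crosses -0.53, SE 0.18, adjusted p = 0.777). *Hspa8*, the constitutive Hsp70, was at 98.6 ± 78.7, 14.0 ± 6.44, 102 ± 99.9 and 119 ± 75.5 CPM (1.57, SE 0.55, adjusted p = 0.777), and *Atf4* was at 0.45 (SE 0.21, adjusted p = 0.876). The heat-inducible *Hspa1b* was at -0.05 (SE 0.79) and *Dnajb1* at 0.29 (SE 0.24) between crosses. Both were named for their rank in comparisons within a cross, and most other genes of this list are not printed. The 11 tested of 16 ubiquitin-like modifier genes had a median of 0.15, and *Sumo2* the lowest unadjusted p-value (1.18, SE 0.86, adjusted p = 0.955).

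The small ribosomal subunit, to which the protein fused to ubiquitin in *Rps27a* belongs, had 30 of 32 listed genes tested and 0 called. The shares called of all genes tested were 0.00764% between crosses and 0% within each cross. Between crosses 19 were above and 11 below 0, with a median of 0.09. In cKO against flox 24 of the 30 were below 0, with a median of -0.23 beside -0.01 over all genes tested, and 3 were lower and 1 higher at an unadjusted p under 0.05 (3.19% of all genes). This split rests on flox replicate 1, which held the highest sum of these genes, 36901 CPM against at most 30498 CPM elsewhere, and the highest erythroid marker sum, 1323 CPM against at most 377 CPM, whose part in it was not tested. Without that library 17 of the 30 were below 0, with a median of -0.074, and 1 was lower and 3 higher at an unadjusted p under 0.05. *Rps19* had 495 ± 97.2 CPM in cKO (n = 4) and 908 ± 81.0 CPM in flox (n = 3), a log2 fold change of -0.88 (SE 0.25, adjusted p = 0.9998), and *Rps13* had 1082 ± 155 and 1718 ± 479 CPM, a log2 fold change of -0.67 (SE 0.24, adjusted p = 0.9998).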

How the data were processed

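Germ cells were sorted from single embryos and sequenced as 3' Tag-Seq libraries in 13 samples, grouped by the deposited labels as WT, KO, flox and cKO. The authors trimmed adapters with cutadapt, aligned reads to mm10 with STAR 2.6.0 and counted them per gene with featureCounts 1.6.3, and deposited raw counts with 1 column per embryo. Annotation, strand setting and the treatment of reads with several matches are not given in the sources used here. The authors' tables of 2 comparisons, made with edgeR 3.28.1 and limma 3.42.2, hold fold changes and p-values and were not used.

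Gene names came from GENCODE M21, which matched 55154 of 55335 identifiers. Genes were tested with edgeR 4.0.16 in R 4.3.3 by the quasi-likelihood F test on the deposited counts of all 13 libraries, with TMM normalization, filterByExpr (minimum count 10, total 15) and a mean for each of 4 groups, which kept 13086 genes, and genes were called at a Benjamini-Hochberg adjusted p ≤0.05. Levels are CPM after TMM, with a prior count of 2 on the log2 scale. Exact permutation tests over libraries, two-sided, were made for single genes within a cross on mean log2 CPM. Sums over the members were planned with the same test and are given here without a p. The biological coefficient of variation was 0.841. No molecular identifiers are described.

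The members and lists were chosen with earlier results of these data known. The genes named were the members, in each list and comparison up to 3 genes with the lowest unadjusted p-value, the 5 genes nearest to *Ubb* by the gap between crosses in each direction, the 5 genes most correlated with *Rps27a*, and *Nr3c1*, and from each list only those that bear on the text are printed. Alternatives were RLE, upper-quartile or no normalization beyond library totals, other filters, DESeq2 1.42.0, limma 3.58.1 voom, a fit of the 2 groups compared, a prior count of 0.5, a block for the replicate number, and leaving out each library. Weighting by ubiquitin units, and the small ribosomal subunit list without each flox library, were added after the data were seen. Some genes that these rules would name are not reported here.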

Additional observations from a re-analysis of the deposited data

Results flagged for a closer look

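*Rps27a* in WT replicate 2, at 41.1 CPM from 86 counts, stood apart from the other 5 constitutive libraries, which ran from 231 to 544 CPM, by Dixon's criterion on the log2 scale. The sum of *Ubb* and *Rps27a* in this library, at 44.4 CPM, stood apart in the same way and is made up mostly of *Rps27a*. These were 2 of 9 sets of libraries examined over the members and their sum, and chance flags about 1 in 20. The same library had the lowest *Ubb* count, 7, and the lowest sum of small ribosomal subunit genes, 17770 CPM. Whether these values have a common source was not tested.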

How the results depend on the processing

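The difference in *Ubb* between crosses stayed between 5.78 and 5.90 on the log2 CPM scale under the other normalizations and prior count, and between 5.56 and 5.97 with each library left out. The sum of *Ubb* and *Rps27a* differed by 1.72 between crosses, by 1.26 to 2.06 with each library left out, and by 3.12 when each gene was weighted by its ubiquitin units (4 for *Ubb* and 1 for *Rps27a*), a weighting chosen after the data were seen. Neither gene was called within a cross or in the difference of GR effects in any of 127 tests under the alternatives. In cKO against flox *Rps27a* changed sign with the replicate block (0.077) and with limma voom (0.0080), and ranged from -0.56 to 0.52 with libraries left out, and *Ubb* from -0.47 to 0.063. *Ubb* dropped out of the filter of at least 10 counts in every library, and that filter gives it no value.

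The number of genes called depended on the filter. Without a filter beyond 1 count, 15 genes were called in KO against WT, 11 in cKO against flox and 35 between crosses, and DESeq2 called 12, 5 and 35. With at least 10 counts in every library 0 were called between crosses. With libraries left out the counts ranged from 0 to 2 in KO against WT and from 1 to 11 between crosses, both highest without WT replicate 3, and 4 were called between crosses without KO replicate 3. The sum in KO against WT was 1.08 on the log2 scale and ranged from 0.14 without WT replicate 2 to 1.75 without WT replicate 3. The causes were not tested.

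Libraries with the same replicate number did not deviate together (correlations of -0.023 to 0.064 between the groups compared). The labels do not say that equal numbers mark a shared litter or batch, so these correlations cannot show whether pairs exist. The main fit did not pair samples by number, and shared litters or handling were not tested. With the replicate block no member was called.

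In these libraries a count of 1 is 0.270 to 0.484 CPM, so *Ubb* in the constitutive cross rests on 7 to 46 reads per library. Changes of *Ubb* under GR deletion smaller than its interval could not be detected at this depth and number of embryos.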
